A study of Mus musculus with 16 samples.

Results

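Collagen genes code for the chains of the collagens, the triple-helical proteins of the extracellular matrix. They were taken as all protein-coding genes with a RefSeq NM transcript in the mouse genome GRCm38 whose symbol is Col, a type number, the letter a and a chain number. This gave 44 of 21000 genes with an NM transcript, with 61 transcripts and 49 start sites. By class they were 11 fibrillar genes, 6 type IV genes, 6 type VI genes, 3 short-chain network genes, 9 genes of fibril-associated collagens (FACIT), 4 transmembrane genes, 2 multiplexin genes and 3 others. No measured value entered this choice.

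The study compared 2 cultures of mouse embryonic stem cells (ESCs) by ChIP-sequencing, a method that sequences the DNA pulled down with an antibody and calls a peak where reads pile up over background. Both cultures were R1 cells carrying MycER, an exogenous fusion of a point-mutant Myc to the estrogen receptor that OHT (4-hydroxytamoxifen) activates: LIF-ESCs had 100 units per ml of LIF and no OHT, and Myc-ESCs had 50 nM OHT and no LIF. There were 16 libraries by the labels, 4 of them inputs and 2 per culture for each antibody, and 6 deposited peak lists, 1 per culture for each antibody. The antibodies recognised H3K4me3, H3K27me3 and Suz12.

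Collagen chains wind into triple helices in the cell that secretes them, and the molecules then form fibrils, networks or microfibrils according to type. They are made in quantity by fibroblasts, cartilage, bone and other differentiated cells, while basement membrane collagens are already laid down in the early embryo. H3K4me3 is a histone mark of active or poised promoters, and H3K27me3 is the repressive mark written by the Polycomb complex PRC2, of which Suz12 is a subunit. In ESCs many developmental genes carry both marks, a state called bivalent.

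A mark was assigned to a gene if any of its peaks reached within 2500 bp of an NM start site, upstream or downstream, a window of 5001 bases for a gene with 1 start site. Extent is the number of those bases that lie under peaks, and the peak score is the value MACS gave, 10 times the −log10 of the peak's p-value, which grows with depth as well as with enrichment. No list exists per replicate and the read depth is unknown, so the spread between replicates is not known for any value here and no test was run. A peak in 1 list only is therefore a difference between lists, and in cell populations fewer marked cells and less of a mark per cell cannot be told apart. Where a pair of values is given without a culture, the LIF-ESC value comes first. Gene expression was not analysed here.

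All 9 embryonic stem cell marker genes examined, among them Pou5f1, Sox2 and Nanog, had an H3K4me3 peak in both cultures, but so had 67.8% of all genes in LIF-ESCs versus 69.3% in Myc-ESCs, so this mark alone does not check the cell type. Esrrb also had Suz12 in both cultures, over 2054 and 2910 bp, and H3K27me3 in Myc-ESCs only. Klf4 had Suz12 in Myc-ESCs only. Suz12 was thus at 1 of the 9 in LIF-ESCs versus 2 in Myc-ESCs, against 12.8% and 15.7% of all genes. For H3K27me3 it was 0 and 1, against 3.9% and 11.5%. The lists differ in length, from 3120 H3K27me3 peaks in LIF-ESCs to 16717 in Myc-ESCs and from 11305 to 13907 for Suz12, while H3K4me3 had 32469 and 30345. H3K27me3 peaks were short, with a median of 157 and 162 bp, and 89.1% and 79.8% of them scored under 100.

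The promoters of 5 members, 4 with peaks and 1 without, show how their sequences differ. They are the member with the most Suz12 in Myc-ESCs (Col4a1), the one with the highest H3K27me3 score in Myc-ESCs among those without H3K27me3 in LIF-ESCs (Col13a1), the member with H3K4me3 alone and the longest peak (Col18a1, at both start sites), 1 gene of a pair with H3K4me3 alone (Col4a5), and an unmarked member with the lowest CpG ratio among promoters given (Col3a1, tied with Col28a1). Each is 300 bases of RefSeq GRCm38.p6, 250 before the start site and 50 from it, written 5′ to 3′ on the strand of the gene, with each CG dinucleotide in capitals.
Col4a1: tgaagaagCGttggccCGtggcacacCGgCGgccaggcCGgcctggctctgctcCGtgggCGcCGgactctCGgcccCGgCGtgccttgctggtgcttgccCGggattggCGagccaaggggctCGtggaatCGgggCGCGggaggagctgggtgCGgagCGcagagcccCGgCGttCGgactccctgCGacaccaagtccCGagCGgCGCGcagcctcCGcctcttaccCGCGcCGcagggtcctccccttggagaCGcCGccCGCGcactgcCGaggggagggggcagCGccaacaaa
Col13a1: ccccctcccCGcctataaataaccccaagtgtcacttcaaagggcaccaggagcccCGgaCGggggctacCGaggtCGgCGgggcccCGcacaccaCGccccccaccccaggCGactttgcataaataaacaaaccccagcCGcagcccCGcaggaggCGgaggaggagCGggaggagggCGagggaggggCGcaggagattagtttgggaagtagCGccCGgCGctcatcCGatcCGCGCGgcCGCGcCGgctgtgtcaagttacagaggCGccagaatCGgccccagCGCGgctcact
Col18a1, upstream start: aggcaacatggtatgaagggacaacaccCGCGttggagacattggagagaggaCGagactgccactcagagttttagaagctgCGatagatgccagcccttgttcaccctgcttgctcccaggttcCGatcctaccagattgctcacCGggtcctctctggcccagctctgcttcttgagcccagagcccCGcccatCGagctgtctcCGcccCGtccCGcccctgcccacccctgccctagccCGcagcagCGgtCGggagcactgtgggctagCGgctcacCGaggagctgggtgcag
Col18a1, downstream start: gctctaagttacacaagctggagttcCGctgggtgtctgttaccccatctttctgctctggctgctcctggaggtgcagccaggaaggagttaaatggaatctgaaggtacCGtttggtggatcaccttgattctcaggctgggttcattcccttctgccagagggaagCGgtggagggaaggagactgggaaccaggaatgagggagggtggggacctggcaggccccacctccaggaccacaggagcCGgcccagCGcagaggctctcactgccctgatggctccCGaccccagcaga
Col4a5: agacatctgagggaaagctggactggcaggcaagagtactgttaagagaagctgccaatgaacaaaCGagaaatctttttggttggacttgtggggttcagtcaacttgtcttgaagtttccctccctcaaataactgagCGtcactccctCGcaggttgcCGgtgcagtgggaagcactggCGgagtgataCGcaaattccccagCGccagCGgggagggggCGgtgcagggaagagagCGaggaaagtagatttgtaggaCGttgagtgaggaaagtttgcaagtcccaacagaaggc
Col3a1: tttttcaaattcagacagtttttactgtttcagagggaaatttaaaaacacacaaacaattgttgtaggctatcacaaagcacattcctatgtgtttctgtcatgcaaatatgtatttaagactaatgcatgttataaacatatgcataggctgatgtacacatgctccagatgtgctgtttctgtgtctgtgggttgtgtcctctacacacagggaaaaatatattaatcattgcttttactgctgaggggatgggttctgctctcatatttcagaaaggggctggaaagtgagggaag

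The Col4a1 promoter (chr8:11312777-11313076, minus strand) held 37 CG dinucleotides and also spans the start of Col4a2, which runs the other way. Col13a1 (chr10:61979059-61979358, minus strand) held 29. For comparison, the 20315 promoters of NM start sites in the table had a median of 14, with quartiles of 4 and 25.

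Col18a1 held 16 at its upstream start (chr10:77166481-77166780, minus strand) and 6 at its downstream start (chr10:77113656-77113955, minus strand). Col4a5 (chrX:141475169-141475468, plus strand) held 11. Col3a1 (chr1:45311288-45311587, plus strand), without any peak, held 0 and had a GC content of 37.7%, against 74.0% in Col4a1. Col3a1 was picked for its low CpG ratio, so this contrast follows from the choice and tells nothing about unmarked genes. A TATAA match on either strand was found in Col13a1 and Col3a1 and in 21.8% of all these promoters, CCAAT in Col4a1, upstream Col18a1 and Col4a5 and in 38.4%, and GGGCGG in the same 3 and in 47.6%. Sequences were matched for 35 of the 44 members, or 79.5%, under the minimum of 80% set for a comparison over the whole group, so a comparison of CpG content between marked and unmarked collagen genes is void and is not given. The members without a sequence were Col1a1, Col2a1, Col5a2, Col4a3, Col9a3, Col12a1, Col14a1, Col22a1 and Col26a1.

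Over the whole family, H3K4me3 was listed at 27 of the 44 genes in LIF-ESCs versus 31 in Myc-ESCs. The share of all genes with it was 67.8% and 69.3%, close to the 61.4% and 70.5% of the collagen genes. Suz12 was listed at 16 genes in LIF-ESCs versus 15 in Myc-ESCs, or 36.4% and 34.1%, against 12.8% and 15.7% of all genes. H3K27me3 was listed at 6 and 14 genes, or 13.6% and 31.8%, against 3.9% and 11.5%.

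The Polycomb marks were thus listed at a share of collagen genes over 2 times that of all genes in both cultures, while H3K4me3 was not. A total of 3 pairs of type IV genes share a window, so these counts are not of independent promoters. Counted as 41 loci, 24 and 28 had H3K4me3, 6 and 13 H3K27me3, and 14 and 14 Suz12.

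**Figure D1:**
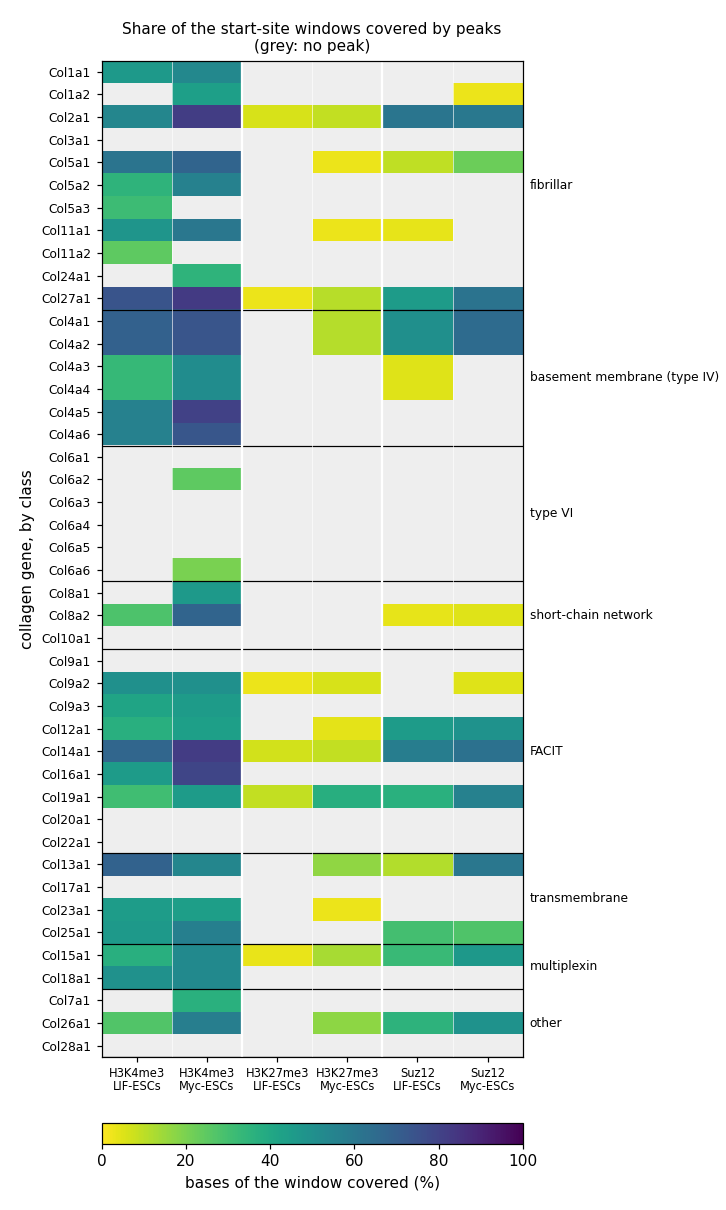
Each row is a collagen gene, grouped by class, and each column is 1 of the 6 peak lists. Colour gives the percentage of the bases within 2500 bp of the start sites that peaks cover, and grey marks no peak; H3K4me3 is listed at 27 and 31 genes, H3K27me3 at 6 and 14, and Suz12 at 16 and 15.

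Every collagen gene with Suz12 or H3K27me3 had H3K4me3 in the same culture as well. This held for 16 of 16 genes with Suz12 in LIF-ESCs and 15 of 15 in Myc-ESCs, against 93.9% and 98.0% of all genes with Suz12. It held for 6 of 6 and 14 of 14 genes with H3K27me3, against 91.8% and 95.5% of all genes with that mark. The shares over all genes are nearly as high, so this is shared with marked genes in general.

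All 3 marks were listed together at 5 collagen genes in LIF-ESCs versus 12 in Myc-ESCs, against 2.91% and 9.55% of all genes. The 5 were Col2a1, Col27a1, Col14a1, Col19a1 and Col15a1, and they had all 3 marks in Myc-ESCs too. Col5a1, Col4a1, Col4a2, Col12a1, Col13a1 and Col26a1 had H3K4me3 and Suz12 in LIF-ESCs and all 3 marks in Myc-ESCs, and Col9a2 had H3K4me3 and H3K27me3 in LIF-ESCs. No peak of any antibody was listed at 17 genes in LIF-ESCs versus 13 in Myc-ESCs, against 31.3% and 30.1% of all genes.

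H3K27me3 was listed in Myc-ESCs but not LIF-ESCs at 8 genes, which lie at 7 loci: Col5a1, Col11a1, Col4a1, Col4a2, Col12a1, Col13a1, Col23a1 and Col26a1. The same change of listing was found at 8.4% of all genes. None went the other way, against 0.833% of all genes. When both H3K27me3 lists were cut to their 3120 highest-scoring peaks, there were 6 collagen genes in LIF-ESCs versus 5 in Myc-ESCs, of which 5 were in LIF-ESCs only and 4 (Col4a1, Col4a2, Col13a1 and Col26a1) in Myc-ESCs only. The excess in Myc-ESCs thus appeared with the full lists and not with lists of equal length, where the share of all genes was 3.9% and 3.44%. With peaks scoring at least 100, H3K27me3 was at 0 collagen genes in LIF-ESCs and at 5 of them (the same 4 and Col19a1) in Myc-ESCs, against 0.348% and 3.66% of all genes.

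For Suz12, 2 genes were listed in Myc-ESCs only (Col1a2 and Col9a2), against 4.22% of all genes, and 3 in LIF-ESCs only (Col11a1, Col4a3 and Col4a4, at 2 loci), against 1.38%. All 5 rested on peaks scoring under 100, and with peaks of at least 100 alone the same 12 genes had Suz12 in both cultures. At that score Suz12 was at 8.64% of all genes in LIF-ESCs versus 12.0% in Myc-ESCs. H3K4me3 was listed in Myc-ESCs only at Col1a2, Col24a1, Col6a2, Col6a6, Col8a1 and Col7a1, 6 genes, against 2.34% of all genes. It was in LIF-ESCs only at 2, Col5a3 and Col11a2, against 0.852%. None of these 8 peaks scored above 210.2.

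Where a mark was listed in both cultures, more bases lay under its peaks in Myc-ESCs at most collagen genes. For Suz12 this was so at 11 of 13 genes, against 81.4% of all genes with Suz12 in both. The median extent was 1829 bp in LIF-ESCs versus 2798 bp in Myc-ESCs, where over all such genes it was 1064 and 1733 bp. For H3K27me3 it was so at 6 of 6 genes, against 87.7%, with medians of 240.5 and 506 bp and of 164 and 721 bp over all genes. A larger extent in Myc-ESCs was thus about as frequent among collagen genes as among all genes for both Polycomb marks, and with H3K27me3 lists of equal length it could be compared at 1 gene only.

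H3K4me3 covered more bases in Myc-ESCs at 22 of 25 collagen genes, or 88.0%, against 65.2% of all genes with H3K4me3 in both cultures. The median was 2300 bp in LIF-ESCs versus 2868 bp in Myc-ESCs, with a median difference of 617 bp, where all genes had 3418 and 3575 bp and a median difference of 142 bp. The exceptions were Col13a1, Col23a1 and Col9a2. All 6 type IV genes are among the 22, although they share their peaks in pairs. Over the whole lists H3K4me3 peaks were also longer in Myc-ESCs, with a median of 2316 bp in LIF-ESCs versus 2623 bp in Myc-ESCs. The longest H3K4me3 peak at a collagen gene had a median length of 2173 bp in LIF-ESCs versus 2631 bp in Myc-ESCs, shorter than the 3381 and 3552 bp over all marked genes. With lists of equal length the count for collagen genes was again 22 of 25, and with scores of at least 100 it was 16 of 19. The share of all genes with a larger extent was not computed under either setting. Whether the contrast with all genes holds there was thus not tested.

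**Figure D2:**
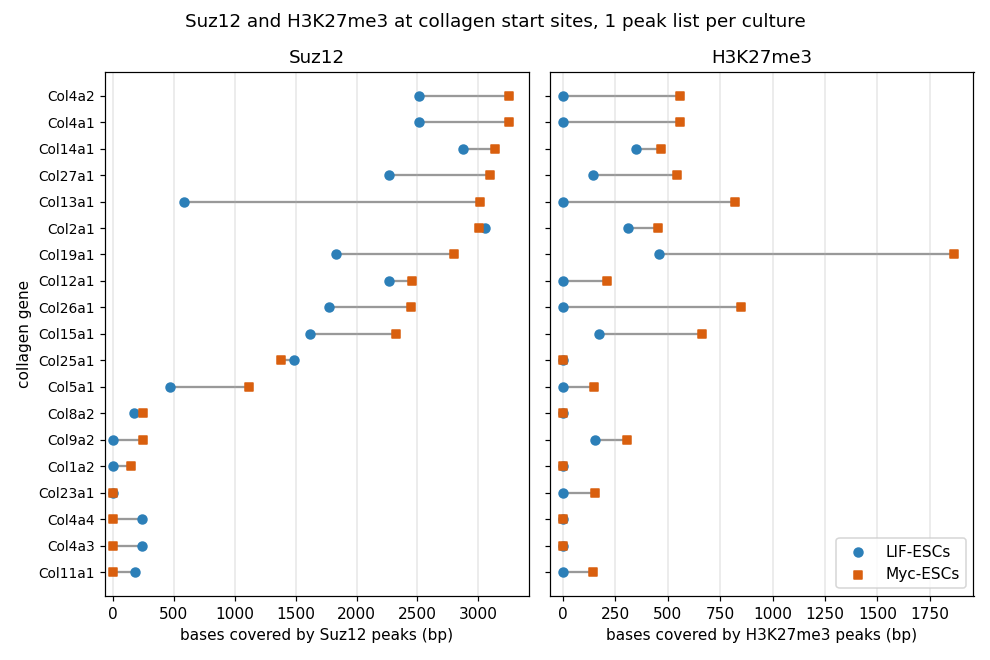
Bases covered by Suz12 peaks (left) and H3K27me3 peaks (right) within 2500 bp of the start site, in bp, for the 19 collagen genes with either mark. Blue circles are LIF-ESCs, orange squares Myc-ESCs, and each point is 1 peak list without replicate error; Col13a1 spans the widest Suz12 gap, 585 to 3015 bp, and Col19a1 the widest for H3K27me3, 457 to 1865 bp.

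Among the fibrillar collagens, which form the cross-banded fibrils of skin, bone, tendon and cartilage, H3K4me3 was listed at 8 of 11 genes in each culture, Suz12 at 4 in each, and H3K27me3 at 2 and 4. The shares of all genes were 67.8% and 69.3% for H3K4me3, 12.8% and 15.7% for Suz12, and 3.9% and 11.5% for H3K27me3. Counts of the classes below stand beside the same shares. Col2a1 (chr15:97975602-98004724, minus strand), the main collagen of cartilage, had the largest Suz12 extent of the family in LIF-ESCs. Its Suz12 peaks covered 3054 bp in LIF-ESCs versus 3001 bp in Myc-ESCs, with highest scores of 2131 and 2958. Suz12 extent was thus nearly equal in the cultures, and each list had 4 peaks there, the main one over exon 1 and intron 1. H3K27me3 at Col2a1 covered 310 bp in 2 peaks in LIF-ESCs versus 452 bp in 2 peaks in Myc-ESCs. H3K4me3 covered 2710 bp in 2 peaks in LIF-ESCs and 4090 bp under a single peak of 5596 bp in Myc-ESCs (chr15:98000718-98006313). Col2a1 was thus marked by all 3 antibodies in both cultures, with a broader H3K4me3 region in Myc-ESCs.

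Col27a1 (chr4:63215412-63334991, plus strand), a minor fibrillar collagen of cartilage, also had all 3 marks in both cultures. Suz12 covered 2264 bp in LIF-ESCs versus 3092 bp in Myc-ESCs, and its highest score was 1062 and 2220. H3K27me3 covered 141 bp in 1 peak and 546 bp in 3 peaks, with scores of at most 60.5 and 53.1, close to the lowest score of 50 in these lists. H3K4me3 covered 3711 and 4155 bp. In Myc-ESCs the main Suz12 peak ended at -11 bp, just before the start site, and 2 further peaks lay beyond it in exon 1 and intron 1.

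Col5a1 (chr2:27886425-28039510, plus strand) codes for a chain of type V collagen, which sets the diameter of type I fibrils. Suz12 covered 469 bp in 1 peak in LIF-ESCs versus 1116 bp in 3 peaks in Myc-ESCs, with highest scores of 165 and 284. A single H3K27me3 peak of 150 bp, in intron 1 at 1725 to 1874 bp from the start site, was listed in Myc-ESCs with a score of 63.4. H3K4me3 covered 3076 and 3387 bp, so the Polycomb peaks lay within a wider H3K4me3 region. Its partner Col5a2, whose product joins the same molecule, had H3K4me3 alone, covering 1754 and 2796 bp.

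Col11a1 (chr3:114030540-114220756, plus strand), of the type XI collagen of cartilage fibrils, had weak Polycomb peaks that did not coincide. A Suz12 peak of 181 bp in intron 1, score 58.1, was listed in LIF-ESCs only, and an H3K27me3 peak of 145 bp at -1980 to -1836 bp from the start site, score 64.6, in Myc-ESCs only. H3K4me3 covered 2401 and 3018 bp there. Col11a2 (chr17:34039138-34066684, plus strand), another chain of type XI collagen, had a single H3K4me3 peak of 1240 bp in LIF-ESCs, score 70.5, and none in Myc-ESCs, where the nearest peak was 4787 bp from the start site.

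The genes of type I collagen, the main collagen of bone and skin, differed from each other. Col1a1 (chr11:94936224-94953042, plus strand) had H3K4me3 in both cultures, covering 2300 and 2661 bp. In LIF-ESCs that peak began 178 bp after the start site, and it was the one collagen gene of 27 whose LIF-ESC H3K4me3 peak did not cover a start site. Col1a2 (chr6:4505618-4541543, plus strand) was without a peak in LIF-ESCs, while the Myc-ESC lists had H3K4me3 over 2179 bp, score 210.2, and a Suz12 peak of 151 bp, score 60.0, at -2270 to -2120 bp from the start site. The nearest LIF-ESC H3K4me3 peak was 94197 bp from the Col1a2 start site.

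The other fibrillar genes had little. Col5a3, a further type V chain, had an H3K4me3 peak of 1564 bp in LIF-ESCs only, with a score of 52.6, and Col24a1, a minor fibrillar collagen, one of 1745 bp in Myc-ESCs only, with a score of 67.5. Col3a1, the collagen of vessel walls and soft tissue, had no peak in any list, and the nearest H3K4me3 peak lay 105045 bp away in LIF-ESCs and 57999 bp away in Myc-ESCs.

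Type IV collagens form the network of basement membranes, and their 6 genes lie as 3 head-to-head pairs on separate chromosomes. H3K4me3 was listed at 6 of 6 genes in both cultures, Suz12 at 4 in LIF-ESCs versus 2 in Myc-ESCs, and H3K27me3 at 0 and 2. Each pair shares its peaks, so these are 3 loci. The pairs differed in their Polycomb marks.

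Col4a1 (chr8:11198423-11312826, minus strand) and Col4a2 (chr8:11312805-11449287, plus strand) code for the chains found in nearly all basement membranes, and their start sites are 21 bp apart. In LIF-ESCs 4 Suz12 peaks covered 2510 bp, the highest scoring 571. In Myc-ESCs a single Suz12 peak of 3249 bp (chr8:11311150-11314398) spanned both start sites and exon 1 of both genes, with a score of 3100, higher than 96.1% of the list. This was the largest Suz12 extent of the family in Myc-ESCs. Exactly the same score of 3100 stood at Col14a1 in this list and at Col18a1 in the Myc-ESC H3K4me3 list. Whether 3100 is a ceiling of the caller was not tested, so other scores can be set against it only roughly. For H3K27me3, 3 peaks were listed in Myc-ESCs and none in LIF-ESCs, covering 559 bp with a highest score of 108. Those on the Col4a1 side lay in its intron 1 and that on the Col4a2 side in its intron 3, so all flanked the start sites. H3K4me3 covered 3453 bp in LIF-ESCs versus 3679 bp in Myc-ESCs, with scores of 1851 and 1021.

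Col4a3 (chr1:82586921-82722059, plus strand) and Col4a4 (chr1:82450723-82586849, minus strand), of the mature kidney filter membrane, start 72 bp apart. Their Suz12 peak was 243 bp long, covered the Col4a3 start site, scored 75.0 in LIF-ESCs, and was absent from the Myc-ESC list. H3K4me3 covered 1653 bp in LIF-ESCs versus 2564 bp in Myc-ESCs, with scores of 74.3 and 303. Col4a5 (chrX:141475419-141689235, plus strand) and Col4a6 (chrX:141165403-141474076, minus strand), whose start sites are 1343 bp apart, had no Polycomb peak and an H3K4me3 peak over each start site in both cultures. At Col4a5 these covered 2803 bp in LIF-ESCs versus 4029 bp in Myc-ESCs, at Col4a6 2803 and 3670 bp.

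Type VI collagen forms beaded microfibrils around many cells, and it was the least marked class. None of its 6 genes had a peak in LIF-ESCs, and none had Suz12 or H3K27me3 in either culture. Over all genes, 31.3% had no peak in LIF-ESCs, Suz12 was at 12.8% and 15.7%, and H3K27me3 at 3.9% and 11.5%. At such shares, 0 of 6 genes for Suz12 or H3K27me3 says little about the class. In Myc-ESCs 2 had H3K4me3, with low scores. At Col6a2 the peak covered 1292 bp with a score of 99.5. At Col6a6 it covered 2014 bp with a score of 93.7, at the upstream of its start sites (105828085 on chromosome 9) and not at the other (105809648). Col6a1, Col6a3, Col6a4 and Col6a5 had none.

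Of the short-chain network collagens, Col8a2 (chr4:126286794-126314330, plus strand), of the corneal basement membrane, had weak Suz12 in both cultures. Its peak was 176 bp long and upstream of the start site in LIF-ESCs, score 56.8, and 250 bp long in intron 1 in Myc-ESCs, score 67.8, so the peaks did not overlap. Stronger Suz12 lay within the gene, up to a score of 596 in LIF-ESCs (chr4:126300879-126301853) and 761 in Myc-ESCs (chr4:126300779-126302155), 14085 and 13985 bp from the start site and under H3K4me3 peaks. H3K4me3 at the start site covered 1405 bp in LIF-ESCs versus 3382 bp in Myc-ESCs. Col8a1, whose chain is found in vessel walls, had H3K4me3 in Myc-ESCs only, over 2309 bp with a score of 119, and Col10a1, of hypertrophic cartilage, had no peak.

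FACIT collagens sit on the surface of fibrils and link them to their surroundings. Of their 9 genes, H3K4me3 was listed at 6 in each culture, Suz12 at 3 and 4, and H3K27me3 at 3 and 4. Col19a1 (chr1:24257683-24587437, minus strand), a FACIT collagen of basement membrane zones, had the most H3K27me3 of the family in both cultures. In LIF-ESCs 3 H3K27me3 peaks covered 457 bp, with a highest score of 74.3. In Myc-ESCs 5 peaks covered 1865 bp, the highest scoring 322, above 97.7% of the list. That peak (chr1:24587656-24588348, 693 bp) lay upstream, at -911 to -219 bp from the start site. Suz12 covered 1829 bp in LIF-ESCs versus 2798 bp in Myc-ESCs, with highest scores of 842 and 2730, and H3K4me3 covered 1527 and 2265 bp. All 3 marks were wider at Col19a1 in Myc-ESCs.

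Col14a1 (chr15:55307751-55520803, plus strand), which binds type I fibrils in tendon and skin, had 3 Suz12 peaks over 2877 bp in LIF-ESCs and a single one of 3134 bp in Myc-ESCs (chr15:55306137-55309270), with highest scores of 1025 and 3100. H3K27me3 covered 346 bp in 2 peaks and 466 bp in 3 peaks, with highest scores of 75.9 and 77.6. H3K4me3 covered 3356 and 4104 bp. As at Col4a1, several Suz12 peaks in LIF-ESCs corresponded to 1 in Myc-ESCs.

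Col12a1 (chr9:79598987-79718722, minus strand), its close relative in tendon and ligament, had Suz12 over 2266 bp in LIF-ESCs versus 2456 bp in Myc-ESCs, with highest scores of 729.9 and 1962. H3K27me3 was listed in Myc-ESCs only, as 1 peak of 209 bp in intron 1 with a score of 68.0, and H3K4me3 covered 1846 and 2184 bp. Suz12 thus covered more bases than H3K4me3 there in both cultures.

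The type IX genes, whose chains decorate the type II fibrils of cartilage, were unlike one another. Col9a2 (chr4:121039566-121055325, plus strand) had H3K27me3 in both cultures, 151 bp with a score of 51.4 in LIF-ESCs and 307 bp with a highest score of 85.7 in Myc-ESCs, and a Suz12 peak of 247 bp in Myc-ESCs only, with a score of 71.2. Its H3K4me3 covered 2487 and 2486 bp. Col9a3 had H3K4me3 alone, over 2096 and 2262 bp, and Col9a1 had no peak at either of its start sites. Col16a1, also with H3K4me3 alone, had 2256 bp in LIF-ESCs versus 3952 bp in Myc-ESCs, while Col20a1 and Col22a1 had no peak in any window.

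**Figure D3:**
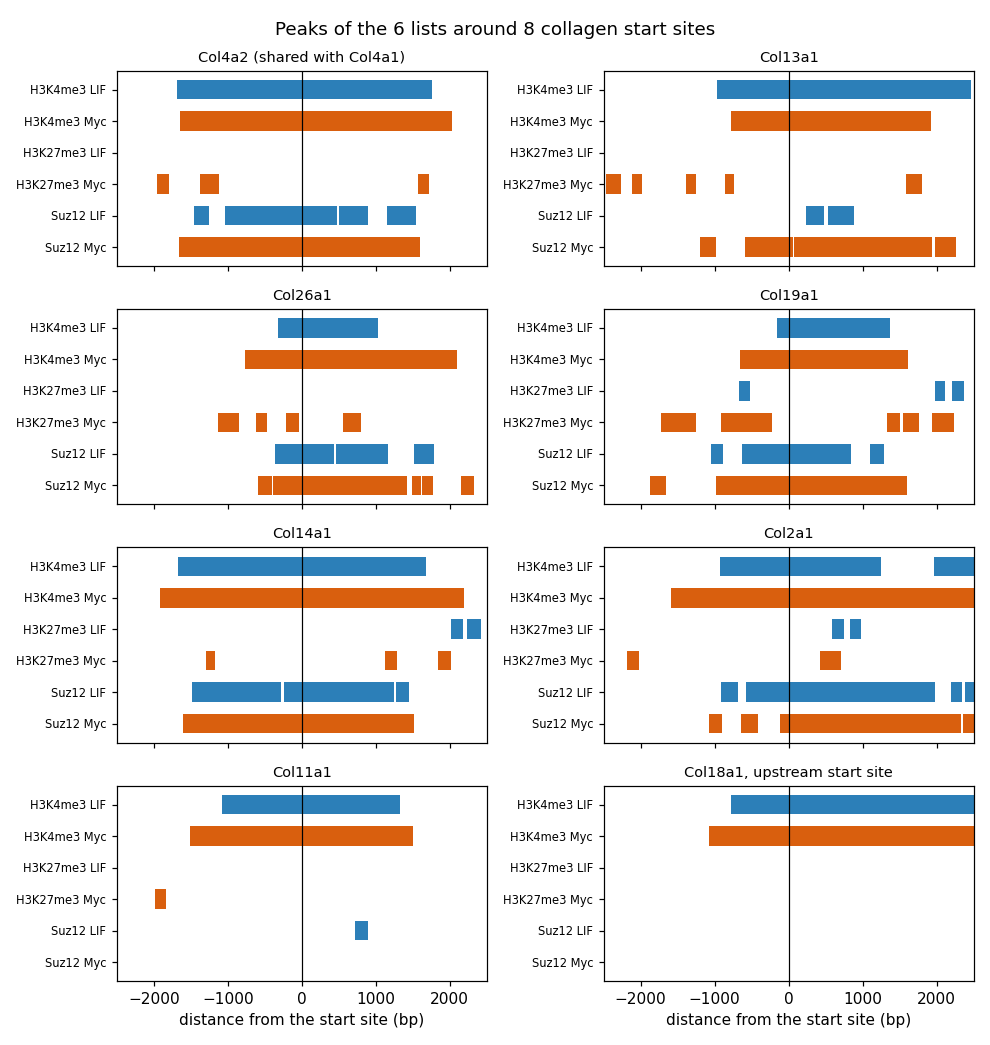
Peaks of the 6 lists around 8 collagen start sites (blue bars LIF-ESCs, orange bars Myc-ESCs), against the distance from the start site in bp with the gene running to the right of 0. Suz12 and H3K4me3 bars lie over or next to the start sites, while the H3K27me3 bars lie to either side; at Col4a2, which shares its promoter with Col4a1, 4 LIF-ESC Suz12 peaks stand above 1 Myc-ESC peak of 3249 bp.

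Transmembrane collagens are held in the cell membrane and shed from it. Col13a1 (chr10:61838234-61979108, minus strand), found at muscle endplates and cell adhesions, had the largest difference in Suz12 extent between the lists. Suz12 covered 585 bp in 2 peaks in LIF-ESCs, in exon 1 and intron 1 from 239 to 879 bp past the start site, with a highest score of 123. In Myc-ESCs it covered 3015 bp in 4 peaks, the highest scoring 2574 (chr10:61977170-61979029), and the peak at chr10:61979052-61979700 spanned the start site and the whole promoter sequence printed above. H3K27me3 was not listed in LIF-ESCs and had 5 peaks over 821 bp in Myc-ESCs, with a highest score of 128. H3K4me3 went the other way, from 3429 bp with a score of 1522 in LIF-ESCs to 2703 bp with a score of 137 in Myc-ESCs, which is from above 75.6% to above 26.9% of the scores in its list. Of the 25 collagen genes with H3K4me3 in both cultures, it was 1 of 3 with less in Myc-ESCs, and in the others, Col23a1 and Col9a2, the extents were 2238 and 2197 bp and 2487 and 2486 bp.

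Col25a1 (chr3:130180845-130599883, plus strand), a neuronal transmembrane collagen, had Suz12 in both cultures and no H3K27me3. Suz12 covered 1490 bp in 4 peaks in LIF-ESCs versus 1379 bp in 2 peaks in Myc-ESCs, with highest scores of 422 and 870. Col25a1 and Col2a1 were the 2 of 13 genes with a smaller Suz12 extent in Myc-ESCs. H3K4me3 covered 2286 and 2850 bp.

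Col23a1 (chr11:51289920-51583925, plus strand) had 2 H3K27me3 peaks in intron 1 in Myc-ESCs without Suz12, covering 153 bp of the window with a highest score of 96.5. That with the highest score began 2499 bp from the start site and so lay just inside the 2500 bp limit. Just outside it were a Suz12 peak at Col1a1, 2891 bp from the start site, and an H3K27me3 peak at Col13a1, 2658 bp from it, both in Myc-ESCs. Col17a1, which anchors skin epithelium in hemidesmosomes, had no peak.

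The multiplexins are basement membrane collagens with interrupted helices that carry the endostatin domain, and their 2 genes differed. Col15a1 (chr4:47208012-47313165, plus strand) had all 3 marks in both cultures. Suz12 covered 1617 bp in LIF-ESCs versus 2327 bp in Myc-ESCs, with highest scores of 389 and 1866, and H3K27me3 171 bp in 1 peak and 664 bp in 4 peaks, with highest scores of 72.8 and 84.5. H3K4me3 covered 1840 and 2631 bp. Col18a1 (chr10:77052179-77166530, minus strand), the precursor of endostatin, had H3K4me3 at both start sites in both cultures and no Polycomb peak. Its upstream peak was 4021 bp long with a score of 1552 in LIF-ESCs and 6065 bp long with a score of 3100 in Myc-ESCs, the longest H3K4me3 peak within a start-site window of the family in each, and its downstream peak was 1649 and 1676 bp long with scores of 84.6 and 66.9.

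Of the rest, Col26a1 (chr5:136741760-136883215, minus strand), a collagen first known from testis and ovary, had Suz12 over 1771 bp in LIF-ESCs versus 2444 bp in Myc-ESCs, with highest scores of 438 and 1578. H3K27me3 was listed in Myc-ESCs only, as 5 peaks over 851 bp with a highest score of 112, of which the nearest ended at -34 bp from the start site. H3K4me3 covered 1348 and 2868 bp. Col7a1, of the anchoring fibrils under the skin, had H3K4me3 in Myc-ESCs only, over 1831 bp with a score of 58.5, and Col28a1 had no peak.

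The 11 collagen genes without a peak in any of the 6 lists were Col3a1, Col6a1, Col6a3, Col6a4, Col6a5, Col10a1, Col9a1, Col20a1, Col22a1, Col17a1 and Col28a1. Those with H3K4me3 alone in both cultures were 7: Col1a1, Col5a2, Col4a5, Col4a6, Col9a3, Col16a1 and Col18a1. Taken by culture, H3K4me3 alone was at 22.7% of collagen genes in LIF-ESCs versus 31.8% in Myc-ESCs, against 55.2% and 52.6% of all genes. No peak of any antibody was at 38.6% and 29.5% of collagen genes, against 31.3% and 30.1% of all genes. Of the unmarked genes, 4 belong to type VI and 3 are FACIT genes. In the type IV and multiplexin classes every gene carried H3K4me3 in both cultures.

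The marks also differed in how often their peaks covered a start site. H3K4me3 peaks covered a start site at 26 of 27 collagen genes in LIF-ESCs and 31 of 31 in Myc-ESCs, against 96.5% and 96.6% of all genes with a peak. Suz12 peaks did so at 10 of 16 and 11 of 15 genes, against 37.7% and 47.9%, and H3K27me3 peaks at 0 of 6 and 0 of 14, against 1.83% and 2.41%. Hence H3K27me3 peaks lay beside the start site at collagen genes as at other genes. Suz12 peaks covered it at a larger share of collagen genes than of all genes with Suz12. A short peak covers a given base less often than a long one. The H3K27me3 peaks at collagen windows had a median length of 155 bp in LIF-ESCs versus 160 bp in Myc-ESCs. The part of peak length in these differences was not tested. Of 37 H3K27me3 peaks at collagen windows in Myc-ESCs, 19 overlapped a Suz12 peak of that culture and 33 lay within 1000 bp of one. In LIF-ESCs these numbers were 5 and 9 of 10. Such peaks were not counted over all genes, so nothing particular to collagen genes can be read from these numbers.

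Peaks away from the start sites were counted for the collagen genes alone, so no share over all genes stands beside them. Within the collagen genes but outside every window, Suz12 had 6 peaks in 2 genes in LIF-ESCs (Col2a1 and Col8a2) and 8 in 3 genes in Myc-ESCs (Col1a1, Col4a1 and Col8a2). In Myc-ESCs the Col1a1 peak and the nearest in Col4a1 lay just past the window, 2891 and 2917 bp from the start site. H3K27me3 had 2 peaks, both in Col2a1, in LIF-ESCs and 10 peaks in 7 genes in Myc-ESCs, 4 of them in Col2a1 between 3186 and 3800 bp from its start site. H3K4me3 had 23 peaks in 16 genes and 25 in 18. One of these, at Col23a1, lies at the start of the neighbouring gene Phykpl. The highest-scoring of the others in LIF-ESCs was in Col4a5 (chrX:141566450-141569421), 91031 bp from its start site, with a score of 962, and the Myc-ESC list had a peak there with a score of 1146.

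Genes that act on collagens were counted in the same way. All 28 genes of modifying and processing enzymes and chaperones, such as the prolyl hydroxylases, the lysyl oxidases and Serpinh1, the collagen chaperone, had H3K4me3 in both cultures. Among all genes the H3K4me3 share was 67.8% and 69.3%. Suz12 was listed at 10 of them in LIF-ESCs versus 8 in Myc-ESCs, or 35.7% and 28.6%, where all genes had 12.8% and 15.7%. H3K27me3 was listed at 0 and 5, or 0.0% and 17.9%, against 3.9% and 11.5% of all genes. The 5 were Adamts2, which removes the amino propeptide of fibrillar collagens, Colgalt2, which adds galactose to hydroxylysine, Lox and Loxl4, which cross-link fibrils, and P3h2, which hydroxylates prolines of type IV collagen. At Adamts2, Suz12 covered 1583 bp in LIF-ESCs versus 3704 bp in Myc-ESCs, and H3K27me3 covered 687 bp in Myc-ESCs. Lox had 399 and 1256 bp of Suz12 and 169 bp of H3K27me3 in Myc-ESCs. Suz12 at Loxl2 and Loxl3 was listed in LIF-ESCs only, as peaks of 160 and 175 bp.

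Of the 10 genes of collagen receptors, 5 had H3K4me3 in LIF-ESCs versus 6 in Myc-ESCs, against 67.8% and 69.3% of all genes. None had H3K27me3, against 3.9% and 11.5%. Suz12 was at 4 and 1, against 12.8% and 15.7%. Those with Suz12 in LIF-ESCs only were Ddr1, a receptor tyrosine kinase, Itga1, an integrin chain, and Mrc2, which takes up collagen, with 424, 716 and 916 bp. Itga11, an integrin chain that binds type I collagen, kept Suz12 in both lists with 798 and 896 bp and had H3K4me3 in Myc-ESCs only.

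The 15 other basement membrane genes, laminins, nidogens and proteoglycans, had H3K4me3 at 13 and 14, no H3K27me3, and Suz12 at 3 in each culture. Their Suz12 share of 20.0% was near the 12.8% and 15.7% of all genes. The H3K4me3 share was 86.7% and 93.3%, against 67.8% and 69.3%, and all genes had 3.9% and 11.5% for H3K27me3. Lamb1, a laminin chain, had Suz12 in LIF-ESCs only, over 1451 bp. Of 6 collagenase genes 3 had H3K4me3 in each culture, none had H3K27me3, and Suz12 was at 1 and 2, with Mmp14 in Myc-ESCs only. These are 50.0% for H3K4me3 and 16.7% and 33.3% for Suz12, beside the same shares of all genes.

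**Figure D4:**
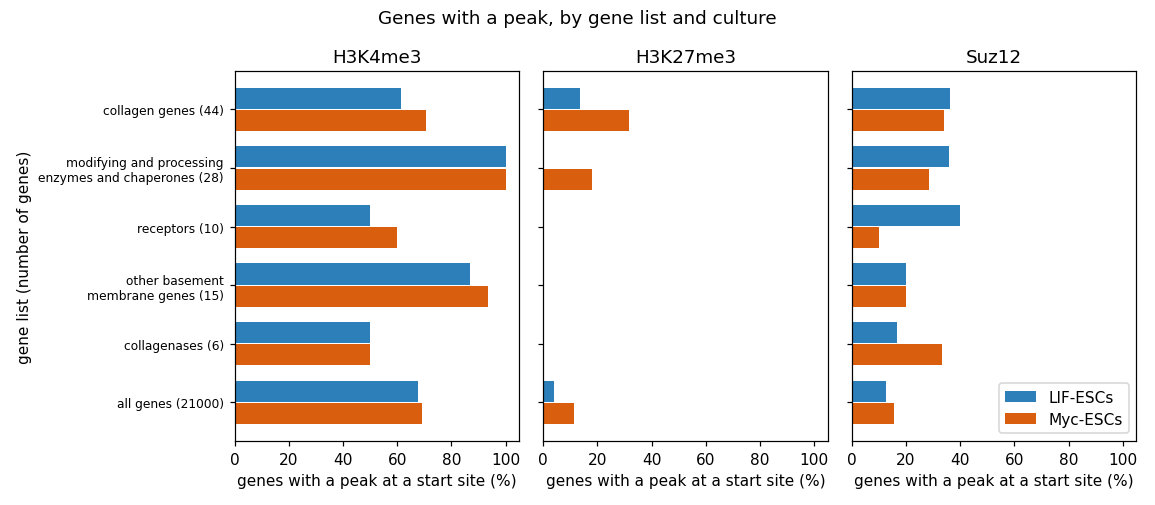
Percentage of genes with a peak within 2500 bp of a start site, for the collagen genes, for 4 lists of genes that act on or beside collagens, and for all 21000 genes. Bars are blue for LIF-ESCs and orange for Myc-ESCs, from 1 peak list each and without error bars; the collagen genes reach 36.4% and 34.1% for Suz12, against 12.8% and 15.7% of all genes.

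As a further comparison, 8 marker genes of collagen-producing mesenchyme had H3K4me3 at 6 in LIF-ESCs versus 7 in Myc-ESCs, Suz12 at 5 and 6, and H3K27me3 at 3 and 5. Among all genes the shares were 67.8% and 69.3% for H3K4me3, 12.8% and 15.7% for Suz12, and 3.9% and 11.5% for H3K27me3. Prrx1, Pdgfra and Runx2 had all 3 marks in both cultures, and Sox9 and Twist1, both regulators of mesenchyme, had H3K27me3 in Myc-ESCs only. Thy1 had H3K4me3 in both cultures, Suz12 in Myc-ESCs only and no H3K27me3. Pdgfrb had H3K4me3 alone, in Myc-ESCs only, and Postn had no peak. Sox9, which drives Col2a1 in cartilage, had 4673 and 4967 bp of Suz12.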

How the data were processed

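Peaks of H3K4me3, H3K27me3 and Suz12 were read from 6 lists, 1 for each combination of culture and antibody, of which 2 libraries each stand behind the labels. Per the paper's methods and the submitters' processing notes, the authors aligned reads to GRCm38 with Bowtie2 2.2.3, kept uniquely placed reads and called peaks against background with MACS 1.4.2 at default settings. The deposited score of each peak is the caller's 10 times −log10 p and rises with read depth, which is unknown, so no counting precision can be given. Pooling of libraries is not given in the sources used here.

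Start sites came from 37867 NM transcripts of 21000 genes in the RefSeq annotation of GRCm38. An overlap of 1 bp sufficed, coordinates count from 1, and 0 columns were left unmatched to a group. Peaks and windows were compared with Python 3.11.15, pandas 2.3.3 and numpy 2.4.6, and drawn with matplotlib 3.10.9. On simulated data, 0 of 4000 genes differed from a plain double loop. No p-value was computed.

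The members, the gene lists and the alternatives were chosen with earlier results of these data known. Every member is accounted for. Full values are given for those with Suz12 or H3K27me3 in either culture or H3K4me3 in 1 culture only; others named with values were chosen after their values were seen. The other settings tried were peaks scoring 100 or more, lists of equal length (the highest-scoring peaks of the longer list), windows of 1000 and 5000 bp, the most upstream start site alone, and leaving out genes that share a window. Their use for counts of larger extent was added after seeing the data.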

Additional observations from a re-analysis of the deposited data

How the results depend on the processing

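Of 102 values recomputed under the alternatives, 79 stayed within 1.5 times the reported count, or extent, and 23 did not. The most upstream start site alone moved 0 of 16. The numbers of genes with Suz12 and with H3K4me3 in each culture kept within that limit throughout, and most changes concerned H3K27me3. At a score of at least 100, H3K27me3 was at 0 collagen genes in LIF-ESCs and at 5 in Myc-ESCs, all 5 in Myc-ESCs only, with 0 and 2208 bases covered in place of 1576 and 7188, and 0 genes were left to compare extents. At that score H3K4me3 was at 0 genes in LIF-ESCs only, and Suz12 at 0 genes in either culture alone. With lists of equal length, H3K27me3 was at 5 genes in Myc-ESCs, 4 of them in Myc-ESCs only, with 1912 bases, and at 5 genes in LIF-ESCs only; its extent was larger in Myc-ESCs at 1 of 1 gene, and H3K4me3 was at 1 gene in LIF-ESCs only. In windows of 1000 bp, H3K27me3 was at 8 genes in Myc-ESCs and 4 in Myc-ESCs only, with 611 and 2767 bases, Suz12 covered 18477 bases in Myc-ESCs in place of 28659, and 1 gene had Suz12 in Myc-ESCs only. Over all genes the H3K27me3 share in these windows was 1.69% and 6.5%, in place of 3.9% and 11.5%. In windows of 5000 bp 1 gene had H3K4me3 in LIF-ESCs only. Without genes that share a window 1 had Suz12 in LIF-ESCs only. Fewer peaks, a smaller window or fewer genes by construction underlie all but the 5000 bp change, where a Myc-ESC peak entered the Col11a2 window. Leaving out a replicate was not run, since the lists are not per replicate. No paired analysis was possible because the lists carry no replicate numbers.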
